A study of Mus musculus with 32 samples.

Results

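Fatty acid and triglyceride synthesis in the liver was followed through 33 genes: the enzymes that make fatty acids, lengthen and desaturate them and join them to glycerol, the enzymes that supply their carbon and reducing power, and 3 transcription factors that act on them. The genes were chosen by name, as members of the pathway. Each was read from its brightest probe, matched by RefSeq identifier, and all 33 were measured, out of 23109 genes tested. The livers came from 32 male wild-type C57BL/6 mice, housed singly, with 1 mouse on each 1-colour Agilent array. The steady mice (NS) stayed in 12 h of light and 12 h of darkness. The jet-lagged mice (CJ) were transferred back and forth, starting when 4 weeks old, between 2 rooms with lights coming on 8 h apart. Time of day is zeitgeber time (ZT), counted in hours from lights on, and livers were snap-frozen at ZT2, ZT10 and ZT18 in mice aged 12 or 30 weeks. That makes 12 groups, of 2 mice where the time was ZT2 and of 3 mice otherwise. How ZT of a jet-lagged mouse relates to its last move is not given in the labels, so equal ZT need not mean an equal phase of the body clock.

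The liver makes fatty acids from carbohydrate after feeding. Citrate leaves the mitochondrion and is split to acetyl-CoA, which is carboxylated to malonyl-CoA and built into palmitate at the expense of NADPH. Palmitate is then activated with CoA, elongated, desaturated and esterified to glycerol phosphate to give triglyceride. SREBP1c (Srebf1), driven by insulin, ChREBP (Mlxipl), driven by glucose, and the oxysterol receptor LXR alpha (Nr1h3) switch these genes on together, and feeding time and the hepatic clock give many of them a daily rhythm.

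Levels are log2 of the processed signal relative to the 75th percentile of the same array, so a level compares mice for 1 gene and not genes with each other. Each array detected 24183 to 32340 of its 55681 probes well above background and had 0 saturated spots. Of the 33 genes, 30 were well above background on all 32 arrays, G6pdx on 31, Pnpla3 on 29 and Pnpla5 on 15 (12 steady and 3 jet-lagged). The G6pdx value of steady mouse 2 at ZT18 and 12 weeks was missing, and the fit left that sample out for this gene. All 10 hepatocyte markers were detected on every array, with a mean level between 8.56 and 9.14. Some arrays also carried RNA of neighbouring tissue: the mean of 15 pancreatic acinar markers ran from -4.09 to 4.65 and that of 14 skeletal muscle markers from -4.66 to 3.31. By a limit of 2 log2 units above the median array, 12 arrays were rich in acinar and 9 in muscle markers, 7 and 5 of them from jet-lagged mice. Adipocytes make triglyceride too, but 0 arrays were rich in the 10 adipocyte markers, whose mean ran from -2.49 to 0.06. Counts are therefore given below also without those arrays, which leaves 20 or 23. Some groups then hold 1 mouse. Where a count from an alternative fit has no share of all genes beside it, it describes the members only. It does not show whether all genes lost calls alike. In whole liver, fewer cells of a type and less RNA per cell cannot be told apart.

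The promoters of 4 of the genes described below are shown. Their motifs were not tested against the differences between the schedules. Fasn and Pnpla5 were lower and Lpin1 higher in jet-lagged mice at the times given below, and Elovl5 was lower at both ages. Each sequence is the 250 bases before the transcription start, read 5′ to 3′ on the gene's strand, from RefSeq (GRCm38.p6). The windows are Fasn chr11:120824548-120824797 (minus strand), Elovl5 chr9:77917115-77917364 (plus strand), Pnpla5 chr15:84123176-84123425 (minus strand) and Lpin1 chr12:16610967-16611216 (minus strand). Capitals mark matches to the E-box CACGTG, which clock proteins and other helix-loop-helix factors can bind, and to the CCAAT box, bound by NF-Y.
Fasn: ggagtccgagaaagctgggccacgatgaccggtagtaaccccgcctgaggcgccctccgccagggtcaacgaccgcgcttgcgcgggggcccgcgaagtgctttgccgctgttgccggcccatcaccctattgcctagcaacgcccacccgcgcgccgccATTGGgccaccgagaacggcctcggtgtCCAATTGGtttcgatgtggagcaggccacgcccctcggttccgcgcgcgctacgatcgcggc
Elovl5: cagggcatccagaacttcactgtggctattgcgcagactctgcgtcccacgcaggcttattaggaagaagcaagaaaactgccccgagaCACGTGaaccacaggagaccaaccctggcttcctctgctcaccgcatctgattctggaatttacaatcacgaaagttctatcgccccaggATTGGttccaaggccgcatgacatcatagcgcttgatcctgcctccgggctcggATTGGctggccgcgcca
Pnpla5: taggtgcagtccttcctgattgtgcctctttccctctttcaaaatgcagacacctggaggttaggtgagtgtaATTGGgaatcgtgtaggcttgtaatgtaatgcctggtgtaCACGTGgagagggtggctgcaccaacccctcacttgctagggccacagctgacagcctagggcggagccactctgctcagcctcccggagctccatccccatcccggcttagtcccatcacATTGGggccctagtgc
Lpin1: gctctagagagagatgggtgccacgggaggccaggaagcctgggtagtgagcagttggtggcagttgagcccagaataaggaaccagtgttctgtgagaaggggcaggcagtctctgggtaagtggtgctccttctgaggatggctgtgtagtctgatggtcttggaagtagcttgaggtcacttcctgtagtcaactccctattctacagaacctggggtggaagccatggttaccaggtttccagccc
Elovl5 and Pnpla5 each hold 1 E-box and 2 CCAAT boxes, Fasn holds 3 CCAAT boxes, of which 2 overlap on opposite strands, and Lpin1 holds neither motif. Over the family, 27 genes had a window and the 37 windows of these genes were searched on both strands. An E-box was found in 13.5% of them (genes Elovl5, Lpin2, Mlxipl, Pnpla5 and Slc25a1) against 6.02% of 32851 windows of all genes. A CCAAT box was found in 45.9% against 33.8%. The sterol response element TCACNCCAC was found in 1 window, of Mlxipl (2.7% against 1.05%), and the D-box TTANGTAA in 0 (2.06% of all windows). A match describes these letters only, and the genes Scd1, Scd2, Elovl3, Fads1, Dgat1 and Dgat2 have no window here.

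The first question was how the pathway differed between the schedules when the 3 times of day were averaged (8 mice per schedule at each age). At 12 weeks 11 of the 33 genes fell in jet-lagged mice and 0 rose, where 2.29% of all genes fell and 2.15% rose. At 30 weeks 12 fell and 1, Lpin1, rose, where 4.48% of all genes fell and 1.77% rose. The median difference over the 33 genes was -0.27 at 12 weeks and -0.26 at 30 weeks, and over all genes 0.03 and -0.02. At both ages 9 genes fell: Acly, Acss2, G6pdx, Acacb, Scd1, Elovl5, Acsl5, Gpam and Pnpla5, which is 81.8% of the calls at 12 weeks and 69.2% of those at 30 weeks. Pnpla5 entered the test only through steady groups where it was high, so its calls do not count as support. Apart from this lipase, the genes called at both ages act at steps between carbon and NADPH supply and the first acylation of glycerol phosphate. Not every step was called: Slc25a1, Acaca, Fasn and Elovl6 passed in this mean at neither age. Of the 11 calls at 12 weeks 8 held when any 1 mouse was left out, and of the 13 at 30 weeks 10 held. Without the acinar-rich arrays 5 passed at 12 weeks and 9 at 30 weeks, and without the muscle-rich arrays 6 and 4. Without all ZT2 mice 3 passed at 30 weeks (Elovl1 and Elovl3, lower, and Lpin1, higher).

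**Figure D1:**
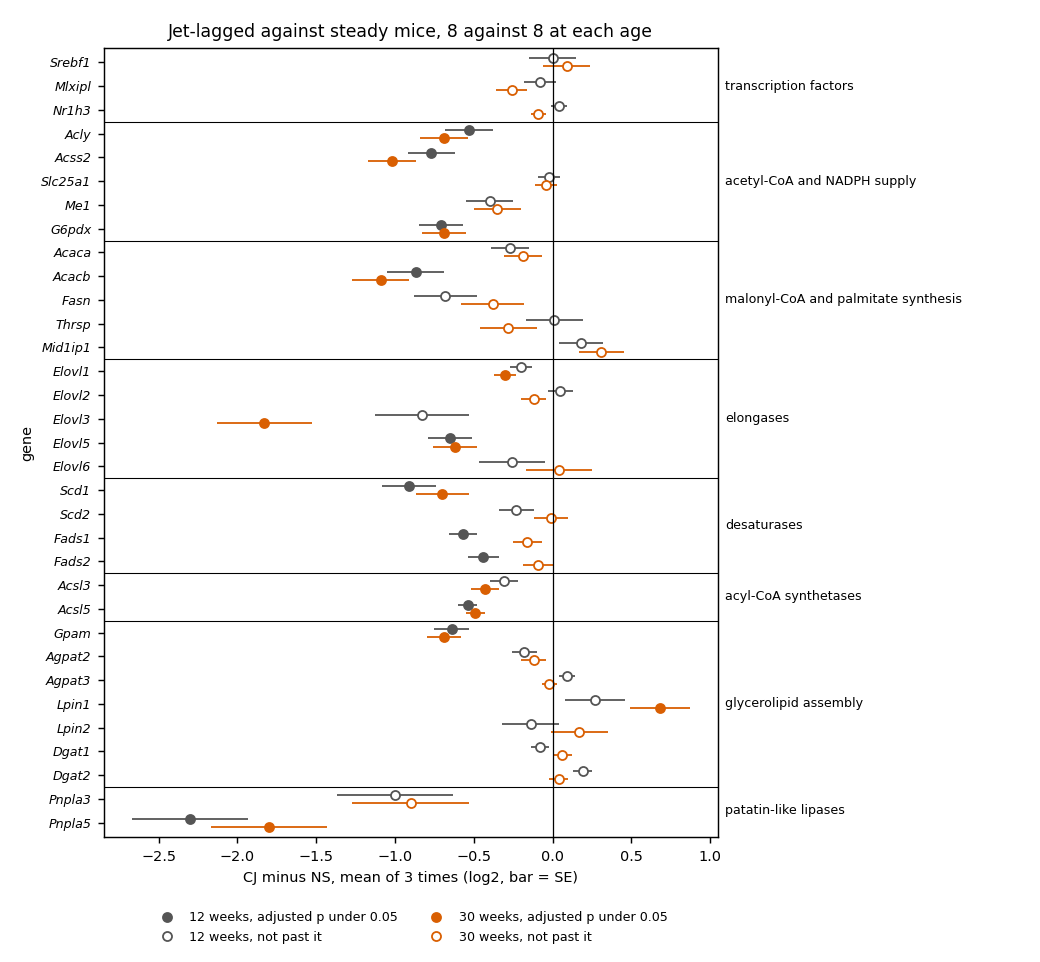
Difference between jet-lagged and steady mice (log2, mean of 3 times of day, bars are SE) for the 33 genes by role, at 12 and at 30 weeks, with 8 mice per schedule and age. Filled symbols passed the limma test (adjusted p under 0.05): 11 genes at 12 weeks, all lower, and 13 at 30 weeks, of which Lpin1 alone was higher. Pnpla5 includes values not well above background.

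The mean over the day covered opposite signs at 30 weeks. There, 13 genes fell in jet-lagged mice at ZT2 and 0 rose (0.917% of all genes fell and 0.441% rose), 1 fell at ZT10 (0.541%), and at ZT18 3 fell and 2 rose (1.77% and 1.7% of all genes). The median over the 33 genes was -0.74 at ZT2, -0.13 at ZT10 and 0.26 at ZT18, and over all genes -0.03, -0.03 and -0.01. At 12 weeks 0 genes passed at ZT2 (0.255% of all genes passed in either direction). An unadjusted p under 0.05 by limma was met by 7, for which the share of all genes is not given. At ZT10 2 fell (0.848%), and at ZT18 8 fell and 1 rose (1.89% and 0.943%), with medians of -0.32, -0.31 and -0.48. Counted by sign alone, 15 genes were lower in jet-lagged mice at all 3 times at 12 weeks (11.2% of all genes) and 8 at 30 weeks (18.6% of all genes).

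**Figure D2:**
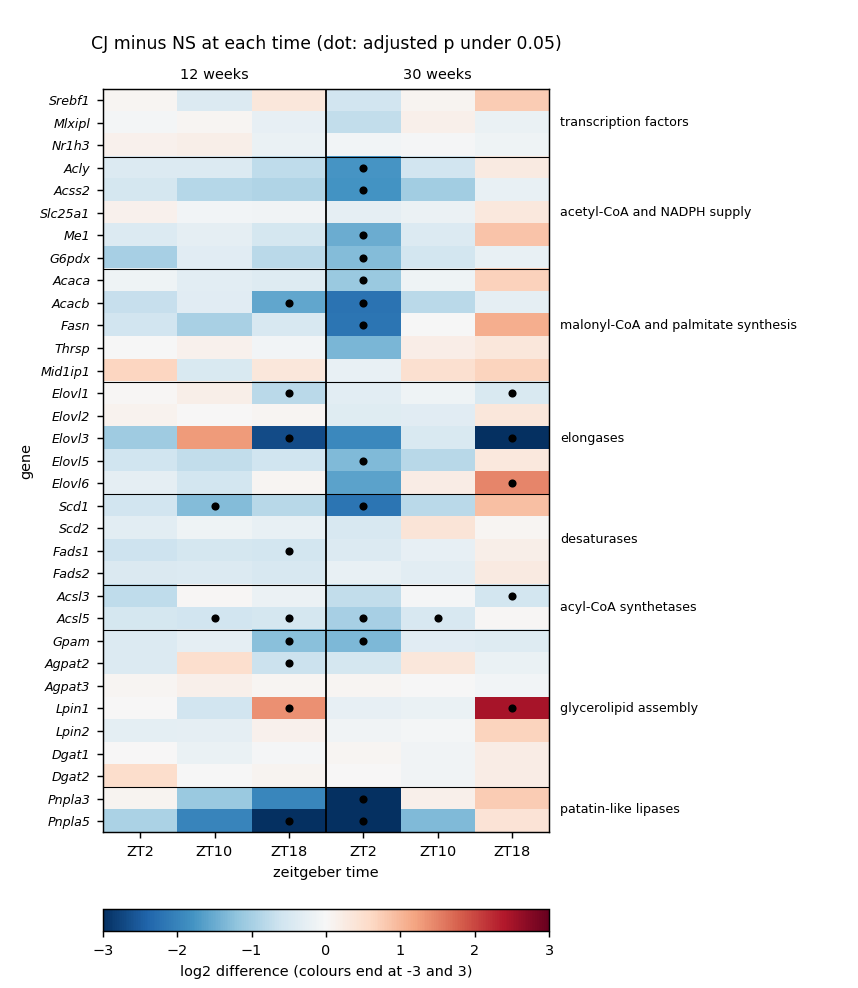
Difference between jet-lagged and steady mice (log2, colour, ends of the scale at -3 and 3) at ZT2, ZT10 and ZT18 for the 33 genes by role, with 12 weeks on the left and 30 weeks on the right; dots mark calls by limma (adjusted p under 0.05). The column for ZT2 at 30 weeks holds 13 calls, all lower, and the column for ZT18 at 30 weeks holds 22 positive values out of 33. Pnpla5 includes values not well above background.

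Acss2 and Acly, whose enzymes make cytosolic acetyl-CoA, fell over the 3 times at both ages. Acss2, which makes acetyl-CoA from acetate, read 6.50 and 6.09 in steady and 4.80 and 4.50 in jet-lagged mice at ZT2 and 30 weeks. At ZT10 it read 6.42, 5.69 and 6.08 against 4.93, 4.27 and 5.27, and at ZT18 6.09, 6.18 and 5.89 against 5.54, 6.55 and 5.68. The jet-lagged mice lay below all steady mice at ZT2 and ZT10 and overlapped them at ZT18. Over the 3 times Acss2 fell by 1.02 ± 0.15 at 30 weeks (2.03-fold, adjusted p = 0.000284) and by 0.77 ± 0.15 at 12 weeks (1.7-fold, adjusted p = 0.00745). Acly, the ATP citrate lyase that splits cytosolic citrate, read 7.62 and 7.46 in steady and 5.92 and 5.62 in jet-lagged mice at ZT2 and 30 weeks, with no overlap. At ZT18 of that age it read 7.30, 7.81 and 7.43 against 7.76, 8.52 and 7.63, and the groups overlapped. Acly fell by 1.78 ± 0.32 at ZT2 (3.42-fold, adjusted p = 0.00428) and over the 3 times by 0.69 ± 0.15 at 30 weeks (adjusted p = 0.00625). At 12 weeks it fell by 0.53 ± 0.15 (adjusted p = 0.0424), a call lost when any of 14 single mice was left out (adjusted p up to 0.139). Slc25a1, the mitochondrial citrate carrier upstream of Acly, passed in no comparison of the schedules.

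NADPH comes from the pentose phosphate pathway and malic enzyme. G6pdx, whose enzyme opens the pentose phosphate pathway, read 1.96 and 1.92 in steady and 0.34 and 0.71 in jet-lagged mice at ZT2 and 30 weeks. At ZT2 and 12 weeks it read 2.01 and 1.95 against 0.85 and 1.22, so at both ages the pairs did not overlap. Over the 3 times G6pdx fell by 0.71 ± 0.14 at 12 weeks (adjusted p = 0.00815) and by 0.69 ± 0.14 at 30 weeks (adjusted p = 0.00425), 1.64-fold and 1.61-fold. Me1, the cytosolic malic enzyme, read 5.91 and 5.56 against 4.62 and 4.22 at ZT2 and 30 weeks, and 5.99, 5.29 and 5.63 against 6.26, 6.96 and 6.37 at ZT18. All jet-lagged mice lay below the steady ones at the first of these times and above them at the second. Me1 fell by 1.5 ± 0.32 at ZT2 (2.83-fold, adjusted p = 0.0166), and its difference of 0.85 at ZT18 did not pass (adjusted p = 0.0635). Averaged over the day Me1 therefore showed -0.35 (adjusted p = 0.188).

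The carboxylases that make malonyl-CoA differed in size of change. Acacb, the carboxylase at the mitochondrial surface, whose malonyl-CoA restrains fatty acid oxidation, read 5.04 and 4.63 in steady and 2.74 and 2.45 in jet-lagged mice at ZT2 and 30 weeks. At ZT18 and 12 weeks it read 5.20, 5.02 and 5.22 against 3.13, 3.86 and 3.27. In both sets every jet-lagged mouse lay over 1 log2 unit below every steady one. Acacb fell by 2.21 ± 0.37 at ZT2 and 30 weeks (4.61-fold, adjusted p = 0.00284) and by 1.57 ± 0.30 at ZT18 and 12 weeks (2.98-fold, adjusted p = 0.00478). Over the 3 times it fell by 0.87 ± 0.18 and 1.09 ± 0.18 at the 2 ages (adjusted p = 0.00815 and 0.000596), and both calls held without any 1 mouse. Acaca, the cytosolic carboxylase that feeds fatty acid synthase, read 5.72 and 5.23 against 4.75 and 4.25 at ZT2 and 30 weeks and fell by 1.11 ± 0.26 there (2.17-fold, adjusted p = 0.0297). That call for Acaca was lost when any of the 4 mice of the pair of groups was left out (adjusted p from 0.0534 to 0.318).

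Fasn, the fatty acid synthase that builds palmitate, changed its order between the schedules over the day at 30 weeks. At ZT2 and 30 weeks Fasn read 3.96 and 3.20 in steady and 2.06 and 1.01 in jet-lagged mice. At ZT10 it read 3.82, 2.76 and 4.84 against 3.35, 3.42 and 3.93, and at ZT18 3.63, 3.53 and 3.36 against 4.42, 5.24 and 4.47. Jet-lagged mice were all below at ZT2, within the steady range at ZT10 and all above at ZT18. Fasn fell by 2.19 ± 0.42 at ZT2 (4.57-fold, adjusted p = 0.00788), and its difference of 1.08 at ZT18 did not pass (adjusted p = 0.0761). At 12 weeks the difference for Fasn was negative at all 3 times and averaged -0.68 ± 0.20, just outside the threshold (adjusted p = 0.0503). Thrsp (Spot 14), a nuclear and cytosolic inducer of lipogenesis, and its relative Mid1ip1, which promotes polymerisation of acetyl-CoA carboxylase, passed in no comparison of the schedules.

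Of the 5 elongases, Elovl3 and Elovl1 shared 1 pattern. Elovl3 makes very long saturated and monounsaturated chains and is known for its strong rhythm in male liver. It read 6.41, 6.10 and 6.04 in steady and 3.20, 3.47 and 3.84 in jet-lagged mice at ZT18 and 12 weeks, and 6.77, 6.55 and 6.56 against 3.74, 3.22 and 3.43 at 30 weeks. The groups were over 2 log2 units apart at both ages. Elovl3 fell there by 2.69 ± 0.51 (6.47-fold, adjusted p = 0.00478) and 3.11 ± 0.51 (8.61-fold, adjusted p = 0.0014), the largest falls among the 33 genes at ZT18 of genes above background in both groups. At ZT10, its steady trough, Elovl3 read 1.86, 2.90 and 2.29 against 2.79, 4.48 and 3.61 at 12 weeks, where the ranges overlapped and the difference of 1.28 ± 0.51 did not pass (adjusted p = 0.201). Elovl1, an elongase of very long saturated chains, read 6.50, 6.64 and 6.64 against 5.86, 5.73 and 5.63 at ZT18 and 12 weeks and fell by 0.82 ± 0.11 (1.77-fold, adjusted p = 0.000209). At 30 weeks it read 6.17, 6.41 and 6.32 against 5.83, 6.05 and 5.86 and fell by 0.45 ± 0.11 (adjusted p = 0.022), a call lost without any of 4 single mice. At ZT2 Elovl3 read 6.94 and 6.74 in steady and 6.17 and 5.34 in jet-lagged mice at 12 weeks, and 6.42 and 6.81 against 3.07 and 5.85 at 30 weeks. Both jet-lagged mice lay below both steady mice at each age, and the differences of -1.07 ± 0.64 and -1.94 ± 0.64 did not pass (adjusted p = 0.534 and 0.145).

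Elovl5 and Elovl6 lengthen polyunsaturated chains and palmitate, respectively. Elovl5 read 6.93 and 6.64 in steady and 5.42 and 5.57 in jet-lagged mice at ZT2 and 30 weeks. At ZT18 of that age it read 6.02, 5.79 and 6.04 against 6.25, 6.27 and 6.38, so the order of the groups was reversed without overlap at either time. Elovl5 fell by 1.33 ± 0.30 at ZT2 (2.51-fold, adjusted p = 0.0235) and over the 3 times by 0.65 ± 0.14 at 12 weeks and 0.62 ± 0.14 at 30 weeks (adjusted p = 0.0109 and 0.00909). Elovl6 read 4.96 and 4.22 against 3.72 and 2.74 at ZT2 and 30 weeks, and 5.33, 4.68 and 4.90 against 6.34, 6.95 and 6.14 at ZT18. It rose by 1.47 ± 0.35 at ZT18 (2.78-fold, adjusted p = 0.0206) and its difference of -1.60 at ZT2 did not pass (adjusted p = 0.0722). The rise of Elovl6 was lost without steady mouse 2 or 3 or jet-lagged mouse 2 at ZT18 (adjusted p from 0.0745 to 0.128). Elovl2 passed in no test.

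Of the 4 desaturases 3 fell at 12 weeks and 1, Scd1, also at 30 weeks. Scd1, which makes oleate and palmitoleate, read 7.69, 8.01 and 8.13 in steady and 6.52, 6.33 and 7.21 in jet-lagged mice at ZT10 and 12 weeks. At ZT2 and 30 weeks it read 8.32 and 7.85 against 6.59 and 5.44, and at ZT18 of that age 7.97, 7.26 and 7.30 against 8.19, 8.45 and 8.76. Scd1 was therefore lower in every jet-lagged mouse in the first pair of sets and higher in every one in the last. It fell by 1.31 ± 0.29 at ZT10 and 12 weeks (2.48-fold, adjusted p = 0.0215), by 2.20 ± 0.36 at ZT2 and 30 weeks (4.58-fold, adjusted p = 0.0024) and over the 3 times by 0.91 ± 0.17 at 12 weeks (1.88-fold, adjusted p = 0.00491). The mean fall at 30 weeks, 0.70 ± 0.17 (limma, adjusted p = 0.0146), was lost without steady mouse 1 or jet-lagged mouse 2 at ZT2. Either removal leaves 1 mouse in that group. Without all ZT2 mice the difference had the opposite sign, a rise of 0.05 that did not pass (adjusted p = 0.943). Scd1 has close relatives, and cross-hybridisation among their probes was not tested.

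Fads1 and Fads2 make polyunsaturated fatty acids. Fads1 read 4.60 and 4.58 against 4.11 and 3.88 at ZT2, 4.75, 4.66 and 4.55 against 4.40, 3.96 and 3.93 at ZT10, and 4.29, 4.59 and 4.92 against 3.98, 4.10 and 4.10 at ZT18, all at 12 weeks. Every jet-lagged mouse of that age lay below every steady mouse of the same time. Fads1 fell by 0.57 ± 0.09 at 12 weeks (1.48-fold, adjusted p = 0.00111) and Fads2 by 0.44 ± 0.10 (1.36-fold, adjusted p = 0.0154). At 30 weeks neither passed, and the change of the schedule difference with age, 0.41 for Fads1 and 0.35 for Fads2, had an unadjusted p under 0.05 but did not pass the adjustment. Scd2, the desaturase of brain and of developing liver, passed in no test.

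Acsl5, an acyl-CoA synthetase of the endoplasmic reticulum and mitochondria, passed in 6 of the 8 comparisons of schedules, more than any other of the 33 genes. At ZT2 it read 5.62 and 5.46 in steady and 5.01 and 5.13 in jet-lagged mice at 12 weeks, and 5.55 and 5.31 against 4.45 and 4.47 at 30 weeks. At ZT10 it read 4.88, 5.12 and 4.98 against 4.65, 4.37 and 4.25 at 12 weeks, and 5.27, 5.14 and 4.98 against 4.61, 4.57 and 4.66 at 30 weeks. At ZT18 it read 4.87, 5.01 and 5.16 against 4.37, 4.45 and 4.53 at 12 weeks, and 5.16, 5.01 and 5.01 against 5.02, 5.23 and 5.04 at 30 weeks. In 5 of these 6 sets the schedules did not overlap, and at ZT18 and 30 weeks they did. Acsl5 fell over the 3 times by 0.54 ± 0.06 at 12 weeks (1.46-fold, adjusted p = 2.35e-05) and by 0.49 ± 0.06 at 30 weeks (1.4-fold, adjusted p = 4.57e-05). It fell at ZT2 and 30 weeks by 1.00 ± 0.12 (adjusted p = 0.000142), at ZT10 by 0.57 ± 0.10 and 0.49 ± 0.10 at the 2 ages (adjusted p = 0.00506 and 0.0219) and at ZT18 and 12 weeks by 0.53 ± 0.10 (adjusted p = 0.00309). The call at ZT10 and 30 weeks was lost without any of 4 single mice (adjusted p up to 0.149). Acsl3, the synthetase of lipid droplets, fell over the 3 times at 30 weeks by 0.43 ± 0.09 (adjusted p = 0.00443) and showed -0.31 at 12 weeks (adjusted p = 0.0506).

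In glycerolipid assembly the first enzyme was lower at both ages and the last step did not pass at either. Gpam, the mitochondrial glycerol-3-phosphate acyltransferase that begins triglyceride synthesis, read 0.66, 0.56 and 0.52 in steady and -0.64, -0.64 and -0.99 in jet-lagged mice at ZT18 and 12 weeks. At ZT2 and 30 weeks it read 0.86 and 0.52 against -0.68 and -0.66. Neither set overlapped. Gpam fell by 1.26 ± 0.19 in the first (2.4-fold, adjusted p = 0.000693) and 1.34 ± 0.24 in the second (2.53-fold, adjusted p = 0.00503), and over the 3 times by 0.64 ± 0.11 at 12 weeks and 0.69 ± 0.11 at 30 weeks (adjusted p = 0.00324 and 0.000819). Agpat2, which adds the next acyl chain, read 5.33, 5.25 and 5.54 against 4.60, 4.79 and 4.80 at ZT18 and 12 weeks and fell there by 0.64 ± 0.14 (1.55-fold, adjusted p = 0.0152). Dgat1 and Dgat2, which make triglyceride from diacylglycerol, Agpat3 and Lpin2 passed in no comparison of the schedules, and Dgat2 showed 0.19 ± 0.06 at 12 weeks (adjusted p = 0.0567).

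Lpin1, a phosphatidate phosphatase that also acts as a transcriptional coactivator, was the only member to rise in more than 1 comparison. At ZT18 it read 1.90, 2.10 and 1.23 in steady and 3.09, 3.19 and 3.13 in jet-lagged mice at 12 weeks, and 1.89, 0.98 and 0.95 against 4.36, 3.82 and 3.49 at 30 weeks. At ZT10, its steady peak, it read 3.95, 3.63 and 3.04 against 2.80, 3.38 and 2.97 at 12 weeks, and 3.11, 3.64 and 3.52 against 3.75, 2.92 and 2.75 at 30 weeks. The schedules were apart at ZT18, with every jet-lagged mouse higher, and overlapped at ZT10. Lpin1 rose at ZT18 by 1.38 ± 0.33 at 12 weeks (2.61-fold, adjusted p = 0.0219) and by 2.48 ± 0.33 at 30 weeks (5.58-fold, adjusted p = 0.000257). A second, dimmer Lpin1 probe gave 1.52 and 2.31. The rise at 12 weeks was lost without any of 5 single mice (adjusted p up to 0.097), and that at 30 weeks held without any 1 mouse. The mean rise of Lpin1 at 30 weeks, 0.68 ± 0.19 (adjusted p = 0.0356), was lost without any of 10 single mice and was 0.43 without jet-lagged mouse 1 at ZT2 (adjusted p = 0.266).

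The patatin-like lipases act on triglyceride, and their genes were near the background of the array. Pnpla5 was well above background on 12 of 16 steady and 3 of 16 jet-lagged arrays. Only steady groups had it well above background on each array, so it entered the test through groups where it was high. Its calls as lower in jet-lagged mice are therefore not independent support. At ZT18 and 12 weeks steady mice read -0.95, -1.28 and -1.71 and 0 of 3 jet-lagged mice were above background, which made Pnpla5 at least 4.47-fold lower. At ZT2 and 30 weeks steady mice read -1.26 and -2.95 and 0 of 2 jet-lagged mice were above background, at least 4.26-fold lower. Pnpla3, whose human counterpart is known from fatty liver disease, read -0.12 and -1.21 against -4.85 and -3.22 at ZT2 and 30 weeks, the first jet-lagged value not being well above background. Pnpla3 fell there by 3.62 ± 0.79 (adjusted p = 0.0202), a size that rests in part on the dim value, and this call was lost without steady mouse 1 or 2 or jet-lagged mouse 1 (adjusted p from 0.0616 to 0.376). Pnpla3 showed -1.0 and -0.90 over the 3 times at the 2 ages, which did not pass (adjusted p = 0.125 and 0.172).

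None of the 3 transcription factors passed in a comparison of the schedules. Srebf1 read 2.69 and 2.47 in steady and 2.14 and 2.09 in jet-lagged mice at ZT2 and 30 weeks, and 2.82, 2.76 and 2.54 against 3.37, 3.93 and 3.33 at ZT18. Its jet-lagged mice were below all steady mice at ZT2 and above them at ZT18, the same order of groups as Fasn, Me1, Elovl6 and Scd1. Neither difference of Srebf1 passed (0.75 at ZT18, adjusted p = 0.105). Mlxipl showed -0.74 at ZT2 and 30 weeks (adjusted p = 0.0767) and did not pass either.

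**Figure D3:**
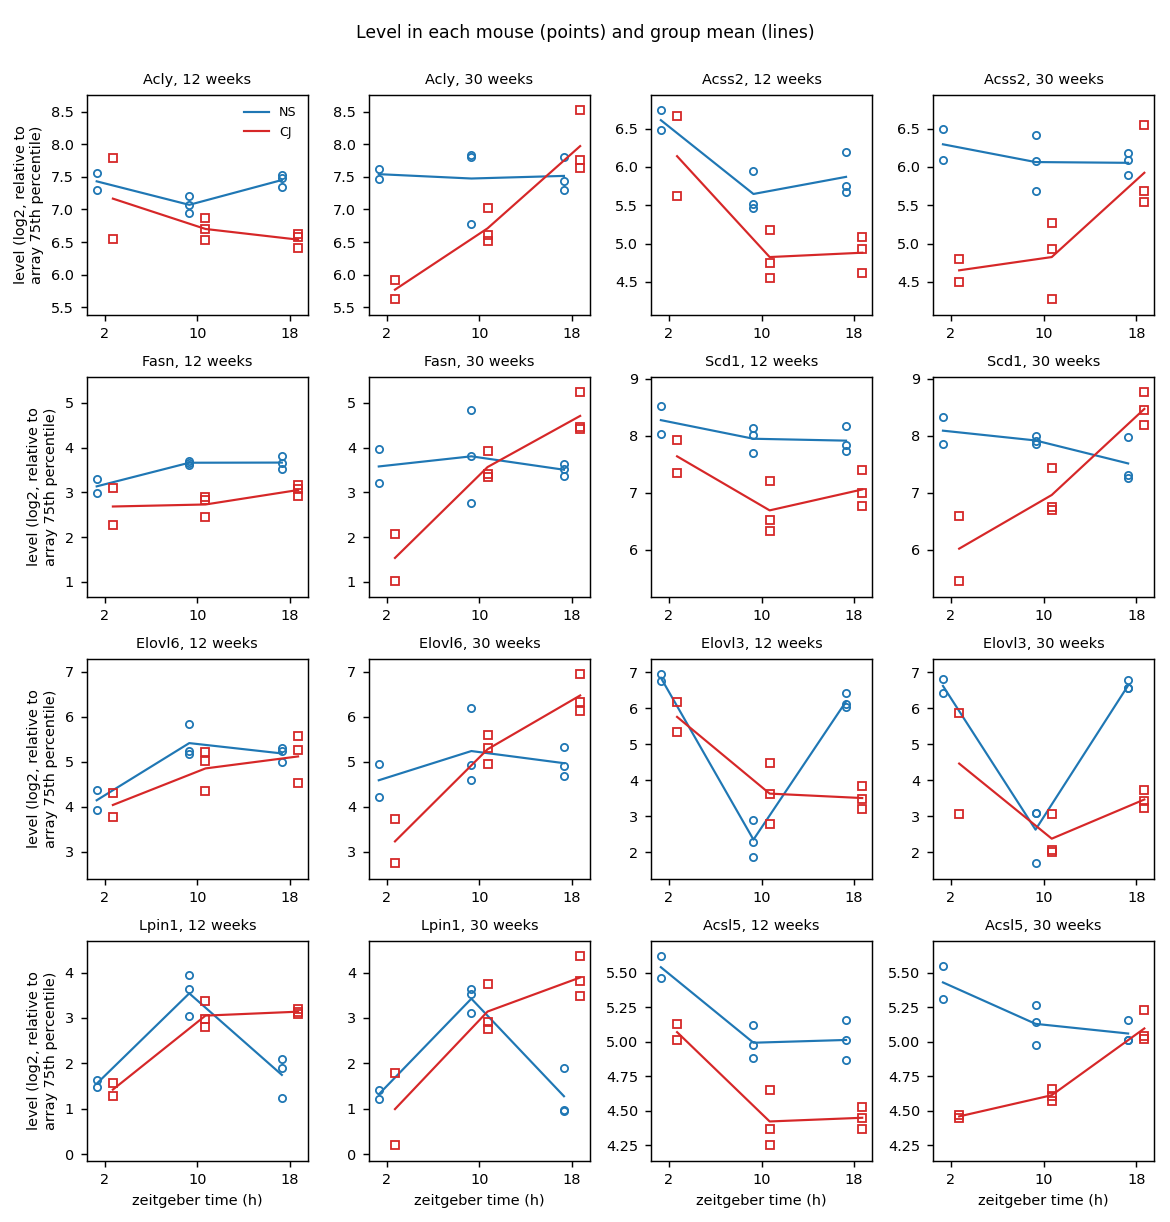
Level of each mouse (points, log2 relative to the 75th percentile of its array) and group means (lines) against zeitgeber time in hours for Acly, Acss2, Fasn, Scd1, Elovl6, Elovl3, Lpin1 and Acsl5, each at 12 and at 30 weeks; blue circles are steady and red squares jet-lagged mice, 2 per group at ZT2 and 3 at ZT10 and ZT18. The red lines of Fasn, Scd1 and Elovl6 climb from ZT2 to ZT18 at 30 weeks while the blue ones are flatter, and the red line of Elovl3 lies far below the blue one at ZT18.

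The fall at ZT2 and 30 weeks rested on 2 mice against 2. The jet-lagged mice lay below both steady mice for 26 of the 33 genes and above both for 0, where 31.2% of all genes lay below and 21.1% above. By role the calls were 4 of 5 supply genes, 3 of 5 genes of malonyl-CoA and palmitate synthesis, 1 of 5 elongases, 1 of 4 desaturases, 1 of 2 acyl-CoA synthetases, 1 of 7 assembly genes, both lipases and 0 of 3 transcription factors. Without steady mouse 1 of this time and age 1 gene passed, Acsl5 (-0.88, adjusted p = 0.00705), in place of 13. The other 12 kept differences from -0.87 to -3.70 with adjusted p from 0.0653 to 0.318. Without steady mouse 2 or jet-lagged mouse 1 8 genes passed, without the acinar-rich arrays 8 and without the muscle-rich arrays 7 (0.359% and 0.433% of all genes). None of these 4 arrays was among the acinar-rich or muscle-rich ones. Acinar markers were at their low end (-3.85 to -3.58 in steady and -4.09 to -3.51 in jet-lagged mice), and muscle markers were at -4.47 and -0.11 in steady and from -4.55 to -4.22 in jet-lagged mice. The mean of 18 acute phase genes, which hepatocytes raise in inflammation, was 5.39 in both steady mice and 6.75 and 6.96 in the jet-lagged ones, and 8 of the 18 rose. Kupffer cell markers were at 2.91 and 3.08 against 3.26 and 3.34, and hepatocyte markers at 8.86 and 8.87 in steady and 8.58 and 8.61 in jet-lagged mice. The part of these markers in the fall of the 13 genes was not tested.

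At ZT18 Elovl1, Elovl3 and Lpin1 were called at both ages, each in the same direction (33.3% of the calls at 12 weeks and 60% of those at 30 weeks). Whether the difference between the schedules at ZT18 changed with age was not tested. At 12 weeks 17 genes lay lower in every jet-lagged mouse and 3 higher (11.2% and 8.53% of all genes), and at 30 weeks 4 lay lower and 15 higher (9.97% and 13.3%). Of the 9 calls at 12 weeks 6 held without any 1 mouse, and of the 5 at 30 weeks 2, Elovl3 and Lpin1. The count at 30 weeks was 8 without steady mouse 2 of ZT10, 2 without steady mouse 2 or 3 of ZT18 and 3 without any 1 of the jet-lagged mice of ZT18. Without the acinar-rich arrays 2 and 1 passed at the 2 ages (0.212% and 0.498% of all genes), and without the muscle-rich arrays 0 and 1 (1.06% and 0.511%). Muscle markers at ZT18 ran from 0.28 to 1.19 in steady and from -3.72 to 1.38 in jet-lagged mice at 12 weeks, and from 0.31 to 2.00 against -1.04 to 3.21 at 30 weeks. Acinar markers ran from -3.56 to 1.7 in steady and from -3.65 to 2.19 in jet-lagged mice at 12 weeks, and from -3.91 to -0.72 against -3.67 to 3.66 at 30 weeks. Kupffer cell markers overlapped between the schedules at 12 weeks (2.55 to 3.18 in steady and 2.32 to 3.75 in jet-lagged mice) and were higher in every jet-lagged mouse at 30 weeks (2.71 to 3.33 against 3.38 to 3.8). Their part in these results was not tested.

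At ZT10 few of the genes passed. Scd1 and Acsl5 fell at 12 weeks and Acsl5 at 30 weeks. Leaving out steady mouse 2 or 3 of ZT10 left 1 call at 12 weeks, and leaving out jet-lagged mouse 2 left 0. At 30 weeks the count was 0 without steady mouse 1 or 2 or jet-lagged mouse 1 or 2 of ZT10, 2 without steady mouse 3 of ZT10 or jet-lagged mouse 2 of ZT18, and 3 without jet-lagged mouse 3 of ZT10 or either 12-week jet-lagged mouse of ZT2. Without the acinar-rich or the muscle-rich arrays 0 passed at either age, with muscle markers from -0.67 to 1.1 in jet-lagged and from -4.66 to -2.20 in steady mice at 12 weeks. Acinar markers at 12 weeks read -3.66, 4.65 and 4.43 in jet-lagged and -1.13, -3.7 and -3.86 in steady mice. The acute phase genes were at 5.77, 6.83 and 5.59 against 5.49, 5.51 and 5.46, so that every jet-lagged mouse was above all steady mice. The part of these markers was not tested.

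Each slide held 4 arrays, and on 4 of the 8 slides both schedules were present at the same time and age. Within those slides 23 of 33 genes were lower in jet-lagged mice at ZT10 and 12 weeks and 23 at ZT18 and 12 weeks. At 30 weeks 17 were lower at ZT10 and 13 at ZT18. The medians, in the same order, were -0.15, -0.23, -0.05 and 0.30. Each set was 1 array against 1, and shares over all genes were not computed. These counts therefore do not set the members apart from the rest of the array. At ZT18 the within-slide difference was -2.94 and -3.11 for Elovl3 at 12 and 30 weeks and 1.29 and 2.51 for Lpin1. Scd1 differed within slides by -1.61 and -1.25 at ZT10 and by -0.32 and 1.5 at ZT18. No slide held both schedules at ZT2, so the ZT2 results have no within-slide value. With the slide as a fixed term 12 genes passed at ZT2 and 30 weeks.

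The next question was how the pathway varied over the day. In steady mice 13 of 33 genes varied with time of day at 12 weeks and 10 at 30 weeks (17.4% and 11.2% of all genes), and 9 at both ages: Acsl3, Acsl5, Agpat2, Dgat2, Elovl1, Elovl3, Gpam, Lpin1 and Thrsp (69.2% and 90% of the calls). The median range between the highest and lowest time was 0.75 and 0.50 over the 33 genes and 0.34 and 0.31 over all genes. The steady peaks were spread over the day, with 6, 3 and 4 called genes highest at ZT2, ZT10 and ZT18 at 12 weeks and 3, 2 and 5 at 30 weeks. Elovl3 had the widest range, 4.54 at 12 weeks (adjusted p = 6.25e-06) and 3.80 at 30 weeks (adjusted p = 4.26e-05), with readings of 6.94 and 6.74 at ZT2 against 1.86, 2.90 and 2.29 at ZT10 in the younger mice. Lpin1 ran the other way, 1.47 and 1.63 at ZT2 against 3.95, 3.63 and 3.04 at ZT10, with ranges of 2.10 and 2.13 (adjusted p = 0.000184 and 0.000286). Agpat2 was highest at ZT18 with ranges of 1.24 and 0.96 (adjusted p = 1e-05 and 0.000251), and Thrsp was highest at ZT18 with ranges of 1.67 and 1.93 (adjusted p = 0.00268 and 0.00182). Fasn, with ranges of 0.48 and 0.12, did not pass in steady mice at either age (adjusted p = 0.649 and 0.967). Without steady mouse 2 of ZT10, 6 genes passed at 30 weeks. Without the acinar-rich arrays 8 and 3 passed at the 2 ages, and without the muscle-rich arrays 10 and 3.

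**Figure D4:**
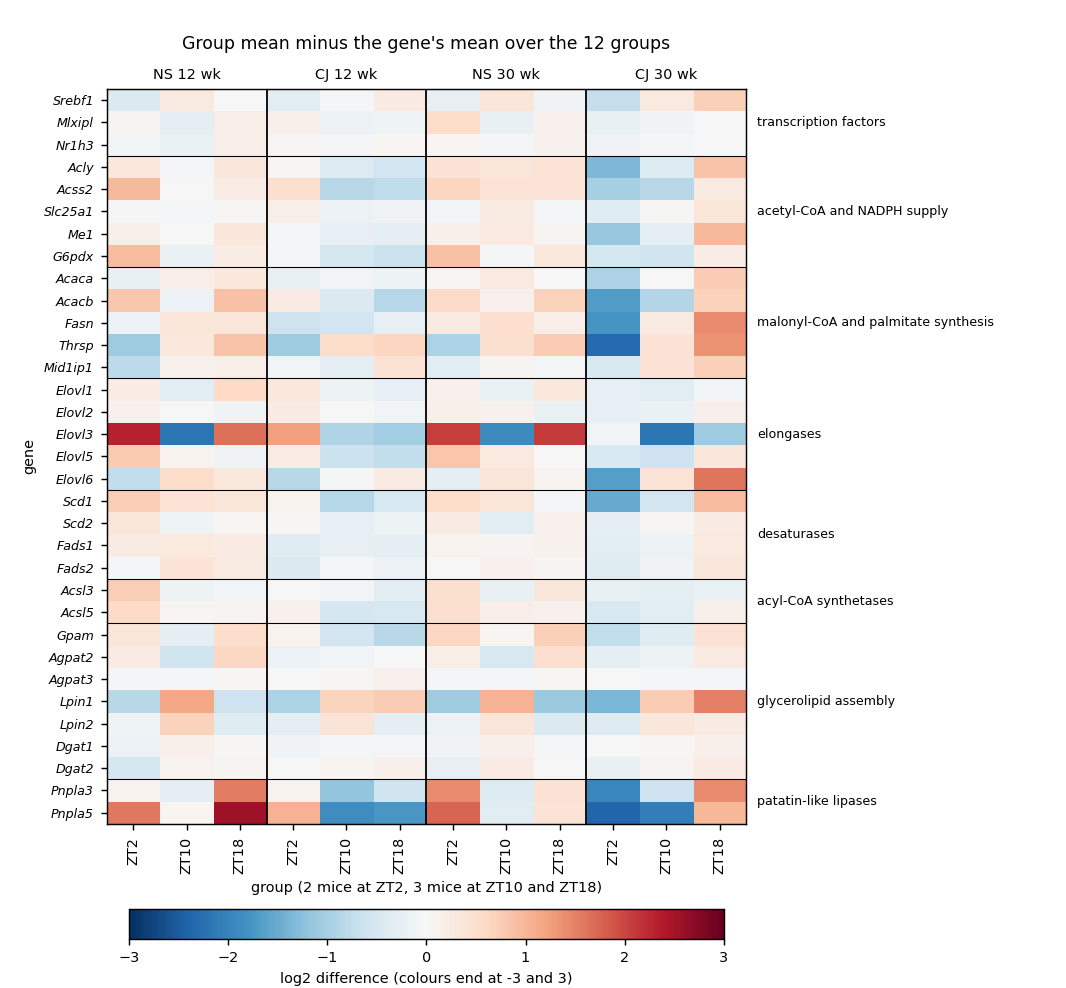
Group mean minus the gene's mean over the 12 groups (log2, colour) for the 33 genes by role, one column per schedule, age and time of day. Jet-lagged mice at ZT2 and 30 weeks form the lowest column and those at ZT18 and 30 weeks the highest for most enzymes of supply and palmitate synthesis, while Elovl3 is high at ZT2 and ZT18 in steady mice. Pnpla5 includes values not well above background.

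In jet-lagged mice 8 genes varied with time of day at 12 weeks and 17 at 30 weeks (5.7% and 3.62% of all genes). At both ages 6 varied: Acsl5, Acss2, Gpam, Lpin1, Pnpla5 and Thrsp (75% and 35.3% of the calls). The calls for Pnpla5 rest mostly on dim values. Just 1 of its 8 jet-lagged arrays at 12 weeks and 2 of 8 at 30 weeks cleared the background limit. Its range was at least 2.24-fold and 2.52-fold at the 2 ages. At 12 weeks 6 of the 8 called genes were highest at ZT2, and at 30 weeks all 17 were highest at ZT18 and lowest at ZT2. For Pnpla5 every jet-lagged array of ZT2 and ZT10 at 30 weeks was dim, so its lowest time is not settled. Peak times were not counted over all called genes, and a change of the daily profile with age was not tested. Thrsp had the widest range at 30 weeks among genes above background throughout: it read 6.55 and 4.82 at ZT2, 8.61, 8.16 and 8.60 at ZT10 and 9.32, 9.67 and 9.15 at ZT18. Both ZT2 values of Thrsp lay below all later ones, and its range was 3.64 (12.5-fold, adjusted p = 2.96e-05). Elovl6 ranged over 3.42 (10.7-fold, adjusted p = 0.000168), Fasn over 3.27 (9.66-fold, adjusted p = 0.00015) and Scd1 over 2.49 (5.6-fold, adjusted p = 0.00036). Pnpla3 varied too (adjusted p = 0.0119), with 1 of its 2 jet-lagged arrays of ZT2 not well above background. Srebf1, a transcription factor of the pathway, ranged over 1.44 with the same highest and lowest time (adjusted p = 0.00991), a call lost without either jet-lagged mouse of ZT2. The part of Srebf1 in the profiles of the other genes was not tested. By role, 5 of 5 genes of malonyl-CoA and palmitate synthesis and 4 of 5 supply genes varied, against 2 of 7 assembly genes and 1 of 5 elongases. Elovl3, the gene with the widest steady range, did not pass at 30 weeks under jet lag (2.29, adjusted p = 0.0639).

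Of the 17 calls at 30 weeks 11 held without any 1 mouse, 12 passed without the acinar-rich and 7 without the muscle-rich arrays (0.732% and 0.84% of all genes). Without the ZT2 mice 0 passed, and 0.00433% of all genes. At 12 weeks 0 of the 8 calls held in every such fit. There the count was 5 and 1 without jet-lagged mouse 1 or 2 of ZT2 and 5 and 4 without jet-lagged mouse 2 or 3 of ZT18, and 4 without the acinar-rich and 1 without the muscle-rich arrays. The 2 jet-lagged mice of ZT2 and 12 weeks stood apart from each other: mouse 1 was below mouse 2 in 25 of 33 genes, with a median distance of 0.43 (0.27 over all genes), and acinar markers were rich in mouse 1 alone. Acly, for example, read 6.55 and 7.78 in them and Thrsp 6.25 and 7.66. With mouse 1 left out, 2 genes passed between the schedules at ZT2 and 12 weeks, in place of 0. In the plot of the median over the 33 genes for each mouse, these 2 mice stood at -0.18 and 0.19, on either side of the mean, whereas both jet-lagged mice of ZT2 and 30 weeks stood below every other mouse.

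**Figure D5:**
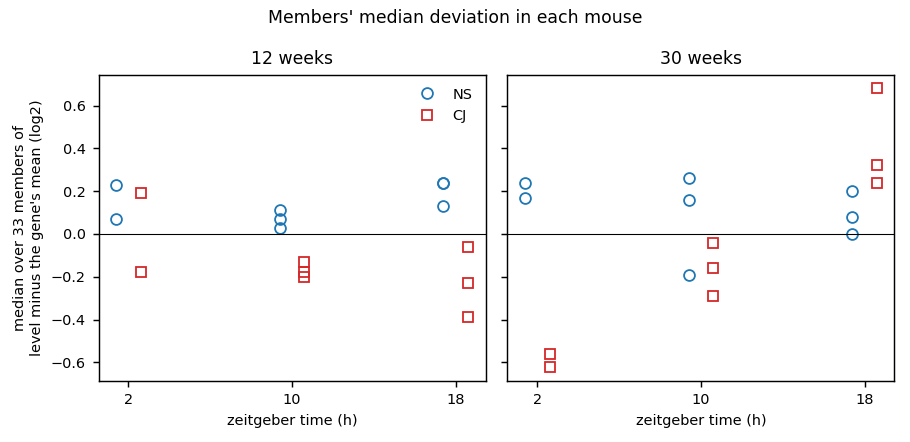
Median over the 33 genes of the level minus the gene's mean over all mice (log2), 1 point per mouse, against time of day, schedule and age. Jet-lagged mice at 30 weeks stand at -0.56 and -0.62 at ZT2, between -0.29 and -0.04 at ZT10 and between 0.24 and 0.68 at ZT18, while steady mice of that age stay between -0.19 and 0.26. Pnpla5 includes values not well above background.

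Whether the difference between the schedules itself depended on the time of day was tested as an interaction. It passed for 3 genes at 12 weeks and 11 at 30 weeks (1.9% and 1.97% of all genes). At 12 weeks these were Elovl3, Agpat2 and Elovl1, each with its least negative or most positive difference at ZT10 and a range of 3.97, 1.14 and 1.01 (adjusted p = 0.0147, 0.00852 and 0.00295). At 30 weeks they were Acly, Me1, Acaca, Fasn, Scd1, Elovl5, Elovl6, Acsl5, Lpin1, Pnpla3 and Pnpla5, each with the difference lowest at ZT2 and highest at ZT18. For Lpin1 the values at ZT2 and ZT10 were close (-0.24 and -0.2), and its second, dimmer probe was lowest at ZT10 (-0.81, against 0.42 at ZT2). The range of the difference was 3.28 for Fasn (adjusted p = 0.00707), 3.09 for Scd1 (adjusted p = 0.00344) and 2.35 for Me1 (adjusted p = 0.0091), and these calls, with those for Acsl5 and Lpin1, held without any 1 mouse. The count at 30 weeks was 5 without steady mouse 1 of ZT2, 6 and 7 without steady mouse 2 or 3 of ZT18 and 7 without jet-lagged mouse 2 of ZT18. It was 0 without the acinar-rich arrays, 1 without the muscle-rich arrays and 1 with the slide as a fixed term. At 12 weeks the count was 0 without either set of arrays and 1 with the slide as a fixed term.

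Age was compared within each schedule over the 3 times. Of the 33 genes 0 passed in steady and 0 in jet-lagged mice (0.9% and 5.31% of all genes), with 2 and 5 at an unadjusted p under 0.05 by limma. The difference between schedules did not pass for a change with age for any of the 33, over the 3 times or at ZT2. Of all genes 0.00865% and 0.0692% passed. An unadjusted p under 0.05 by limma was met by 3 and 15 of the 33. The share of all genes at that limit is not given for any of these unadjusted counts, so they do not single out the members. The estimates at ZT2 were large, -1.62 ± 0.52 for Scd1 (adjusted p = 0.331) and -1.35 for Acly (adjusted p = 0.338), so the fall at ZT2 is described at 30 weeks and not shown to differ from that at 12 weeks. For age in jet-lagged mice 1 gene passed without jet-lagged mouse 1 of ZT2 and 12 weeks or mouse 2 of ZT2 and 30 weeks, and 2 without mouse 1 of ZT10 and 12 weeks. There 8 passed without all ZT2 mice (2.77% of all genes) and 1 with the deposited normalized values. For the dependence on age at ZT2 1 passed without jet-lagged mouse 1 of 12 weeks and 3 without the acinar-rich arrays.

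The other genes of the pathway were read from lists of 10 elongation and desaturation genes, 11 acyltransferases, phosphatases and acyl-CoA synthetases, 11 genes of SREBP and LXR control, 10 of glycolysis and carbon supply and 6 of NADPH supply. Over the 3 times 1, 1, 0, 1 and 1 of them fell at 12 weeks and 2, 1, 2, 1 and 1 at 30 weeks, and 1 acyltransferase, Gpat4, rose at both ages. Of all genes 2.29% fell and 2.15% rose at 12 weeks, and 4.48% fell and 1.77% rose at 30 weeks. Scd3, a close relative of Scd1, fell by 1.06 ± 0.19 and 1.04 ± 0.19 (adjusted p = 0.00372 and 0.00208). Pgd, the next NADPH-forming enzyme after G6pdx, fell by 0.34 ± 0.07 and 0.38 ± 0.07 (adjusted p = 0.0131 and 0.00302). At ZT2 and 30 weeks Pgd fell by 1.04 ± 0.16, with Tkt and Idh1 (3 of 6 NADPH genes, where 0.917% of all genes fell). Insig2, which holds SREBP in the endoplasmic reticulum, fell by 1.15 and 1.31 at ZT18 at the 2 ages (adjusted p = 0.0331 and 0.0125). Pklr, which makes pyruvate, and Tkfc, which phosphorylates glyceraldehyde from fructose, ranged over 2.03 and 1.68 in jet-lagged mice at 30 weeks (adjusted p = 0.000622 and 0.000757), at the same highest and lowest times as the 17 genes called there.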

How the data were processed

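Per the file headers, the deposited scanner output (Agilent Feature Extraction 11.0.1.1, or 9.1 per the submitters' processing notes) gives a background-subtracted, detrended intensity for each spot of a 1-colour array. The deposited value matrix holds log2 values from the authors, per the series' design text normalised with a batch effect removed. It has 16795 values over 15148 probes, its centring and batch are not given in the sources used here, and it served as an alternative only. All 32 of its columns matched their own array best (lowest r 0.992, medians 9.824 to 9.896).

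From the intensity, 3671 control spots of 62976 and outlier spots were dropped, spots averaged by probe, and the 75th percentile of the array subtracted on the log2 scale. A probe entered (30487 of 55681 did) if some group had it well above background on each array. For Pnpla5 only steady groups met this, so each count of falls that includes Pnpla5 holds a call that the filter favoured. RefSeq identifiers named 26582 probes and left 29099 unnamed, and the brightest probe stood for its gene. Of the 33 genes 24 had 1 such probe and 9 had more, and for these all probes shared the sign of 19 of 19 called schedule differences.

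Group means were fitted with limma 3.58.1 (R 4.3.3, data.table version 1.17.8), slides entering as a random block (8 of 4 arrays each, correlation 0.254) and variances moderated (prior df 2.29). A call is a limma adjusted p under 0.05, Benjamini-Hochberg over 23109 genes. Differences are log2, jet-lagged minus steady, ± SE. A range is the highest minus the lowest of 3 times, for an interaction that of the schedule difference. An "at least" fold sets each array of the dim group to the dimmest signal still well above background there, or to the gene's own signal if higher. SD within groups was 0.09 to 0.89 (median 0.32, all genes 0.23). The number of arrays limits the precision, and the fit was tested on simulated data.

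Members and lists were chosen with earlier results of these data known. Any of the 33 genes may be named, values per mouse are given for called genes of largest size in each comparison, and at most 3 genes of each other list are named. Mouse numbers did not pair the mice (mean residual correlation -0.0187 over 160 pairs of equal number and 0.00975 over 308 others). Comparisons share mice and error estimates, so their gene lists are not independent. Alternatives were normexp correction (median spot and background signals), quantile normalisation, other probe filters, the mean of probes, other slide terms, the deposited values, mouse number as a block, and mice left out. Leaving out adipocyte-rich arrays gave no value, since 0 were rich.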

Additional observations from a re-analysis of the deposited data

Results flagged for a closer look

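For 14 genes the difference between the schedules depended on the time of day by the test of the interaction (limma, adjusted p under 0.05). At 12 weeks the range of the difference was 3.97 for Elovl3, 1.14 for Agpat2 and 1.01 for Elovl1, each lowest at ZT18, where jet-lagged mice were lower. At 30 weeks it was 3.28 for Fasn, 3.09 for Scd1, 3.07 for Elovl6, 2.72 for Lpin1, 2.35 for Me1, 2.06 for Acly, 1.80 for Acaca, 1.64 for Elovl5 and 1.03 for Acsl5, each lowest at ZT2 and highest at ZT18. The second, dimmer probe of Lpin1 was instead lowest at ZT10. Pnpla5 (4.85) and Pnpla3 (4.38) had the same order of times, but 0 of 2 and 1 of 2 jet-lagged arrays of ZT2 were well above background for them, so these 2 values are not measured sizes. The calls for Pnpla3 and Elovl5 were lost when any of 24 and 19 single mice was left out.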

How the results depend on the processing

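Of the 116 calls for single genes, those between the schedules kept their direction under every alternative run, with 1 exception. The mean fall of Scd1 at 30 weeks became a rise of 0.05 without the ZT2 mice. Calls over times and for the interaction are ranges without a sign, so their direction and peak times were not compared. With quantile normalisation 113 of 116 stayed called, with normexp 108, with the mean of probes 112, without a filter 92, with the slide as a fixed block 80, without a slide block 102, and with the deposited log2 values 99 of 106. Without the acinar-rich arrays 45 of 116 did, without the muscle-rich arrays 38, which leaves 20 and 23 arrays, and without the ZT2 mice 44 of 103. Mouse number as a replicate block gave 12 and 13 calls for the schedule means, and 107 of the 116 calls stayed; no count moved by over 1.5 times.

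Counts of genes called that moved were as follows. Schedules at ZT10 and 12 weeks (2) gave 4 with normexp, quantile normalisation or the filter on all arrays, 1 with the slide fixed, 9 with deposited values and 0 without acinar-rich or muscle-rich arrays. At ZT10 and 30 weeks (1) they gave 0 without a filter, with the slide fixed or without either set of arrays, 2 with the filter on all arrays or without ZT2 mice, and 3 with deposited values. At ZT18 and 12 weeks (9) they gave 2 and 0 without acinar-rich or muscle-rich arrays, and at 30 weeks (5) 3 without a filter, with the slide fixed or unblocked, 8 with deposited values and 1 without either set. At ZT2 and 12 weeks (0) they gave 1 with normexp, quantile normalisation or without acinar-rich arrays and 2 with deposited values, and at 30 weeks (13) 8 and 7 without acinar-rich or muscle-rich arrays. Schedule means gave 5 and 6 without these arrays at 12 weeks (11), and at 30 weeks (13) 3 without ZT2 mice and 4 without muscle-rich arrays. The interaction at 12 weeks (3) gave 1 with the slide fixed and 0 without either set, and at 30 weeks (11) 7 without a filter, 1 with the slide fixed, 5 without ZT2 mice, 0 without acinar-rich and 1 without muscle-rich arrays. Time of day in jet-lagged mice at 12 weeks (8) gave 5 with normexp, 4 without a filter, 3 with the slide fixed, 0 without ZT2 mice, 4 without acinar-rich and 1 without muscle-rich arrays, and at 30 weeks (17) 0 without ZT2 mice and 7 without muscle-rich arrays. In steady mice at 12 weeks (13) it gave 8 without ZT2 mice or acinar-rich arrays, and at 30 weeks (10) 6 without a filter or with the slide fixed and 3 without either set. Age in jet-lagged mice (0) gave 1 with deposited values and 8 without ZT2 mice, and schedule by age at ZT2 (0) gave 3 without acinar-rich arrays. The causes, the smaller number of arrays among them, were not tested.

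With each of the 32 mice left out in turn, the counts ran from 8 to 14 and 10 to 14 for the schedule means at 12 and 30 weeks, 0 to 2 and 1 to 14 at ZT2, 0 to 3 and 0 to 3 at ZT10, 6 to 9 and 2 to 8 at ZT18, 2 to 4 and 5 to 13 for the interaction, 10 to 17 and 6 to 11 for time of day in steady and 1 to 9 and 12 to 22 in jet-lagged mice, 0 to 0 and 0 to 2 for age in steady and jet-lagged mice, and 0 to 0 and 0 to 1 for schedule by age over the 3 times and at ZT2. Limits are the 2 mice per group at ZT2, 1 slide design with no ZT2 slide holding both schedules, and the dim signals of Pnpla3 and Pnpla5.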
